A study of Mus musculus with 7 samples.

Results

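Mast cells and eosinophils are granulated leukocytes of the type 2 immune response, and 10 genes that mark them were followed here in mouse melanomas. The 10 genes were taken from a list of symbols, of which 7 belong to mast cells (Cpa3, Mcpt4, Cma1, Tpsb2, Ms4a2, Fcer1a and Kit) and 3 to eosinophils (Siglecf, Ccr3 and Ear2). All 10 were found among the 28233 genes of the expression table. The samples were 7 bulk tumours of B16mhgp100, a B16 melanoma line, grown subcutaneously in C57BL/6 mice. In 4 of them, Cr1l 1 to Cr1l 4, the melanoma cells over-expressed Cr1l, the gene of the complement inhibitor Crry, and 3 (Vec 5, Vec 6 and Vec 7) carried the vector. Both groups received the anti-PD1 antibody, starting on day 10, in 4 doses of 200 µg at 2 per week, and were harvested 1 day after the final dose. The labels give neither the promoter of the construct, nor the number of clones behind each line, nor the age of the mice. In the sample titles, Vec 6 and Vec 7 bear extra digits that no label explains. The comparison asks whether the tumours with Cr1l over-expression differed from the vector tumours in these genes under the same antibody.

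Mast cells settle in connective tissue and skin, where they store histamine, heparin and proteases in granules and release them when antigen crosslinks IgE held by their receptor. They depend on the receptor tyrosine kinase Kit, and melanocytes carry and depend on the same receptor, so Kit in a melanoma cannot be read as a mast cell gene alone. Eosinophils leave the bone marrow under interleukin 5 and enter tissue along chemokines that bind Ccr3. The members have further sources: basophils carry the IgE receptor and Cpa3, alveolar macrophages carry Siglecf, and some monocytes and macrophages carry Ear2. In bulk tumours a lower number of cells of a type and less RNA per cell cannot be told apart.

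Genes of both cell types are known to depend on GATA factors, and so the stretch before the start of 4 members is shown with its GATA matches. Promoter sequences came from RefSeq on the GRCm38.p6 build, which is older than the authors' mm39, and 9 of the 10 members had an entry. The letters AGATAA or TGATAA, on either strand, stood within 250 bases before the start of 5 of the 9 (Cpa3, Mcpt4, Ms4a2, Fcer1a and Ccr3) and of 17.0% of all 27025 genes with an entry. The E-box letters CATGTG or CACGTG, which the melanocyte and mast cell factor Mitf can bind, stood in 2 of the 9 (Fcer1a and Siglecf) and in 17.6% of all genes. Neither motif was found before Kit, Cma1 or Ear2. A match describes letters and is not evidence of binding. The 150 bases before the start of Cpa3 (chr3:20242182-20242331, minus strand), Mcpt4 (chr14:56062311-56062460, minus strand), Fcer1a (chr1:173227230-173227379, minus strand) and Ccr3 (chr9:124021821-124021970, plus strand) read as follows, 5′ to 3′, with the GATA matches in capitals.
Cpa3: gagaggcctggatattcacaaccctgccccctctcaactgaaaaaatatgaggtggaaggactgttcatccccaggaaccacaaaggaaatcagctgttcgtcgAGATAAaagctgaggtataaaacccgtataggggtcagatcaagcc
Mcpt4: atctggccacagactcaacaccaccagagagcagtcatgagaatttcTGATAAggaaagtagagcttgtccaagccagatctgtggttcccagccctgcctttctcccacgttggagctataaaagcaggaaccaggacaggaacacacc
Fcer1a: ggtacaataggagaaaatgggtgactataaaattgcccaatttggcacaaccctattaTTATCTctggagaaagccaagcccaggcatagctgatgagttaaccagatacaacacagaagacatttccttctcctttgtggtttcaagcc
Ccr3: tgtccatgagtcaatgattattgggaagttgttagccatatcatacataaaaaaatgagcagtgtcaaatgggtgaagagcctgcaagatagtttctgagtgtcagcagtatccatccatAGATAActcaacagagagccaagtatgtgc
The matches began 46 bases before the start of Cpa3, 103 before Mcpt4, 92 before Fcer1a and 30 before Ccr3.

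Expression was given as TPM, a length-scaled level that can be compared between genes of a tumour. The values of a tumour added up to 993520 to 996031, and the read depth is unknown, so no counting error can be given for single tumours. A table that the authors made with DESeq2 gives only a mean normalized count per gene over all tumours. It was lowest among the members for Ms4a2 (7.06), Fcer1a (12.4) and Siglecf (32.1) and highest for Kit (1051), so the former rest on few reads. Cr1l itself stood at 76.37 to 83.57 TPM in the Cr1l tumours and 46.29 to 54.94 TPM in the Vec tumours. Group differences (mean log2(TPM + 1) of Cr1l less that of Vec) were tested with limma on the 14954 genes that averaged 1 TPM or more, with adjustment over all of them. Of those genes 2948 (19.7%) had Cr1l 3 and Cr1l 4 as their 2 highest tumours, and 9 of the 10 members did. These 2 tumours stood apart from the other 5 in fibroblast and leukocyte genes, while the endothelial list was highest in Cr1l 3 (287 TPM) but not raised in Cr1l 4 (98.2 TPM, against 60.0 to 165 TPM in those 5): the fibroblast list summed to 5934 and 4748 TPM there against 137 to 1144 TPM elsewhere, and Ptprc (CD45, on all leukocytes) stood at 132.88 and 83.57 TPM against 6.44 to 21.97 TPM. Vec 6 stood apart in skin genes, with keratinocyte genes summing to 979 TPM against 1.00 to 73.8 TPM in the other 6. The melanocyte list was lowest in Cr1l 3 and Cr1l 4, at 9881 and 11131 TPM against 14280 to 22077 TPM.

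The 4 granule proteases of mast cells were present in every tumour. Mcpt4, a chymase of connective tissue mast cells, stood at 2.82, 5.38, 24.23 and 28.62 TPM in Cr1l 1 to Cr1l 4 and at 5.60, 19.48 and 1.80 TPM in Vec 5 to Vec 7. Cma1, the other chymase of such mast cells, stood at 1.64, 5.08, 27.58 and 25.78 TPM against 3.83, 13.16 and 2.21 TPM. Tpsb2, a tryptase, stood at 2.40, 7.71, 27.23 and 20.16 TPM against 5.59, 13.28 and 1.34 TPM. For all 3 genes Cr1l 3 and Cr1l 4 were the highest tumours, Vec 6 came next, and Cr1l 1 or Vec 7 was the lowest. Cpa3, the carboxypeptidase that is stored with them, had the same 3 highest tumours at lower levels, with 0.71, 2.22, 9.63 and 8.83 TPM in Cr1l 1 to Cr1l 4 against 1.91, 3.60 and 0.58 TPM in Vec 5 to Vec 7.

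**Figure D1:**
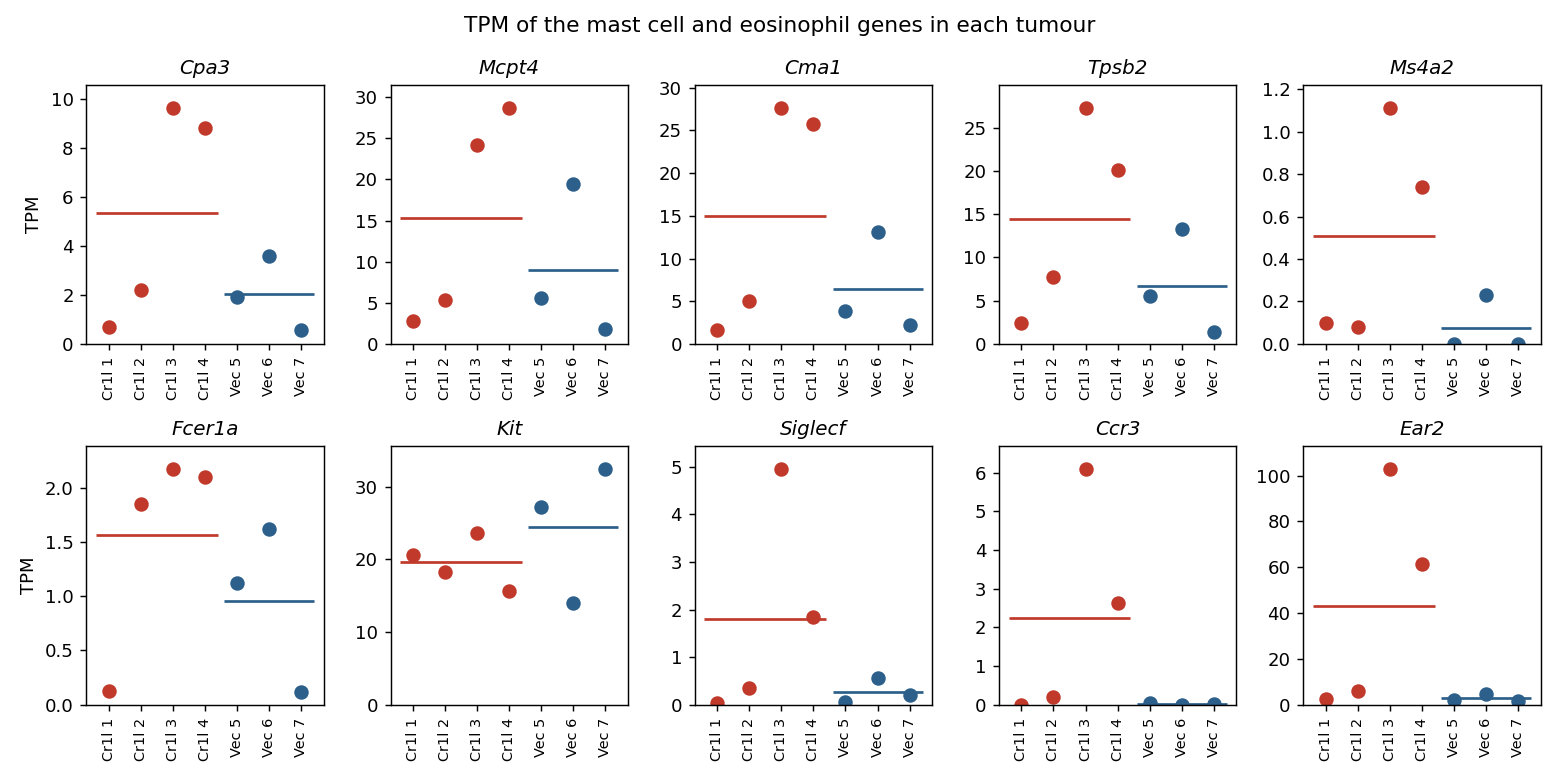
TPM (vertical axis, linear, each panel with its own range from 0) of the 10 genes in the 4 Cr1l tumours (red) and 3 Vec tumours (blue); points are tumours and lines are group means. In every panel except that of Kit the 2 highest points are Cr1l 3 and Cr1l 4, and Vec 6 comes next for the 4 proteases.

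The proteases spread more within the groups than between them. The group means of Mcpt4 were 15.3 ± 13.1 TPM (SD, n = 4) in Cr1l and 8.96 ± 9.31 TPM (SD, n = 3) in Vec tumours, a log2 difference of 0.68 (SE 0.90, limma adjusted p = 0.718). Cma1 averaged 15.0 ± 13.6 (SD, n = 4) and 6.40 ± 5.91 TPM (SD, n = 3), with a log2 difference of 0.80 (SE 0.92, limma adjusted p = 0.674). For Tpsb2 the means were 14.4 ± 11.4 (SD, n = 4) and 6.74 ± 6.05 TPM (SD, n = 3), and the log2 difference was 0.93 (SE 0.84, limma adjusted p = 0.587). Cpa3 averaged 5.35 ± 4.54 (SD, n = 4) against 2.03 ± 1.51 TPM (SD, n = 3), which gave a log2 difference of 0.82 with a 95% interval of -0.80 to 2.45 (limma adjusted p = 0.569). None of the 4 passed, and the interval of Cpa3 covered both directions. Without Cr1l 3 and Cr1l 4, a setting chosen after seeing the data, the 4 differences turned negative. They were -0.55 for Mcpt4 (SE 0.77), -0.59 for Cma1 (SE 0.67), -0.15 for Tpsb2 (SE 0.77) and -0.24 for Cpa3 (SE 0.54), and none passed. Leaving out the 2 highest tumours, both Cr1l, lowers each difference by construction, so the change of sign is no test. Without Vec 6 the 4 differences were larger than with all 7 tumours, at 1.43, 1.42, 1.55 and 1.19 in the same order. Without Vec 7 they were smaller, at -0.0011, 0.35, 0.25 and 0.42. None passed in either case.

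Within each tumour the proteases kept close proportions while their sum varied. The ratio of Mcpt4 to Cma1 lay between 0.814 and 1.72, and that of Tpsb2 to Cma1 between 0.606 and 1.52. Cpa3 stood at 0.262 to 0.499 of the Cma1 level. The sum of the 4 proteases, in contrast, reached 88.7 and 83.4 TPM in Cr1l 3 and Cr1l 4 and 49.5 TPM in Vec 6, with 7.57 and 20.4 TPM in Cr1l 1 and Cr1l 2 and 16.9 and 5.93 TPM in Vec 5 and Vec 7. Set against Ptprc, the sum was 0.552 to 1.37 times the Ptprc level in 6 tumours of both groups and 4.04 times in Vec 6. Vec 6 thus had both the highest protease level relative to Ptprc and the highest keratinocyte sum, and the part of skin in its protease level was not tested.

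The receptor for IgE was low throughout. Fcer1a, its IgE-binding alpha chain, stood at 0.13, 1.85, 2.17 and 2.10 TPM in Cr1l 1 to Cr1l 4 and 1.12, 1.62 and 0.12 TPM in Vec 5 to Vec 7. The levels were near 0 in Cr1l 1 and Vec 7, the tumours with the least protease RNA, and the groups overlapped (log2 difference 0.37, SE 0.49, limma adjusted p = 0.721). Fcer1a averaged 0.968 TPM outside Cr1l 3 and Cr1l 4, so it passed the filter of 1 TPM only through those tumours. Ms4a2, the beta chain that amplifies the signal, stood at 0.10, 0.08, 1.11 and 0.74 TPM against 0.00, 0.23 and 0.00 TPM. It was the 1 member under the filter of a mean of 1 TPM, and the exact permutation test of its log2 difference of 0.43 gave a two-sided p of 0.286. The gamma chain Fcer1g, which serves many Fc receptors of macrophages and other leukocytes, was far higher, at 62.03 to 575.05 TPM against 79.17 to 187.39 TPM. Ighe, the heavy chain of IgE, was listed at 0 in 6 tumours and at 0.10 TPM in Cr1l 3.

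Kit behaved unlike the other mast cell members. Its level was 20.65, 18.28, 23.63 and 15.65 TPM in Cr1l 1 to Cr1l 4 against 27.25, 13.94 and 32.40 TPM in Vec 5 to Vec 7. Vec 7, with the least protease RNA, had the most Kit, and the groups overlapped. Kit averaged 19.6 ± 3.40 TPM in Cr1l (SD, n = 4) and 24.5 ± 9.53 TPM in Vec tumours (SD, n = 3), with a log2 difference of -0.25 (SE 0.29, limma adjusted p = 0.679). The difference of Kit depended on single Vec tumours: it was -0.59 without Vec 6 (SE 0.20, limma adjusted p = 0.484, two-sided exact permutation p = 0.0667) and -0.01 without Vec 7. With 1 Vec tumour left out, 0.0667 is the smallest p that the exact permutation test can give, so it could not have passed. From its lowest to its highest tumour Kit spanned 2.32-fold, against 16.8-fold for Cma1. A narrow span was not particular to Kit among mast cell genes. Of the 7 tested genes of a wider mast cell list, Hpgds spanned 2.19-fold, Slc18a2 and Gata2 2.83-fold, and the others 17.7-fold or more. Kit was 5.46 times the protease sum in Vec 7 and 0.188 times in Cr1l 4. Pmel, the melanosome matrix gene of pigment cells, stood at 2950 and 3276 TPM in Cr1l 3 and Cr1l 4 and at 4681 to 7813 TPM in the other 5. Kit per 1000 TPM of Pmel was 2.85 to 4.15 TPM in 5 tumours, 4.78 in Cr1l 4 and 8.01 in Cr1l 3, the tumours with the least Pmel. The shares of melanoma cells and mast cells in the Kit level were not tested.

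**Figure D2:**
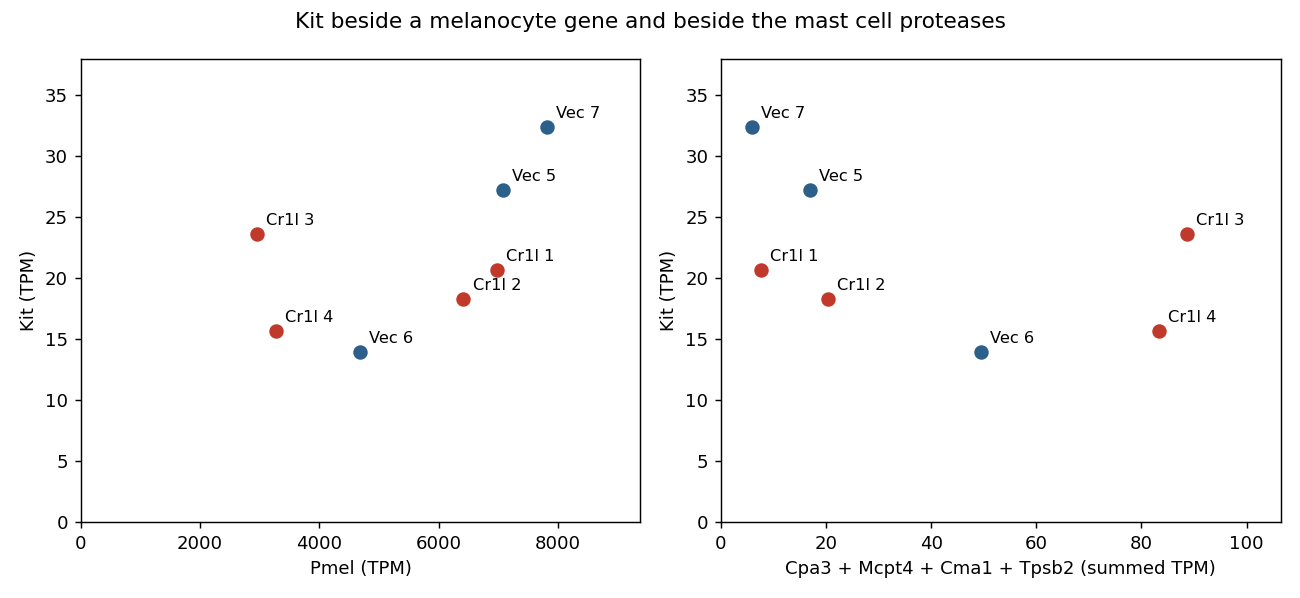
Kit (TPM, vertical axis) against Pmel (TPM, left) and against the summed TPM of Cpa3, Mcpt4, Cma1 and Tpsb2 (right); each point is a labelled tumour, red for Cr1l and blue for Vec. Kit is highest in Vec 7, at 32.40 TPM, where the protease sum is lowest, at 5.93 TPM.

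Eosinophil genes were more uneven over the tumours than mast cell genes. Ear2, a ribonuclease of eosinophil granules, stood at 2.33, 5.78, 102.77 and 61.26 TPM in Cr1l 1 to Cr1l 4 and at 2.22, 4.63 and 1.69 TPM in Vec 5 to Vec 7. Both high tumours lay far above the other 5, among which the groups overlapped. Siglecf, an inhibitory sialic acid receptor, stood at 0.04, 0.36, 4.95 and 1.84 TPM against 0.06, 0.55 and 0.20 TPM. Ccr3, the eotaxin receptor, stood at 0.00, 0.20, 6.09 and 2.63 TPM against 0.03, 0.00 and 0.02 TPM. Both genes were close to 0 outside Cr1l 3 and Cr1l 4, and they passed the filter of 1 TPM only through those 2 tumours.

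The differences of the eosinophil genes did not pass the limma test either. Ear2 averaged 43.0 ± 48.1 TPM (SD, n = 4) in Cr1l and 2.85 ± 1.57 TPM (SD, n = 3) in Vec tumours, a log2 difference of 2.42 (SE 1.17, limma adjusted p = 0.354; two-sided exact permutation p = 0.200). Ccr3 had a log2 difference of 1.21 (SE 0.69, limma adjusted p = 0.409) and Siglecf of 0.82 (SE 0.61, limma adjusted p = 0.516). Without Cr1l 3 and Cr1l 4 the difference of Ear2 was 0.38 (limma adjusted p = 0.727), and Siglecf and Ccr3 did not reach the filter. Ear2 also belongs to a family of near copies: 41.5% of the 50-base words of its GENCODE transcript occurred in transcripts of other genes, among them Ear1 and Ear10, against 0 to 5.48% for the other 9 members. Ear1, Ear6 and Ear10 stood at 0.39 TPM or less in every tumour, and reads may be split among these genes, so the level of Ear2 alone is uncertain.

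**Figure D3:**
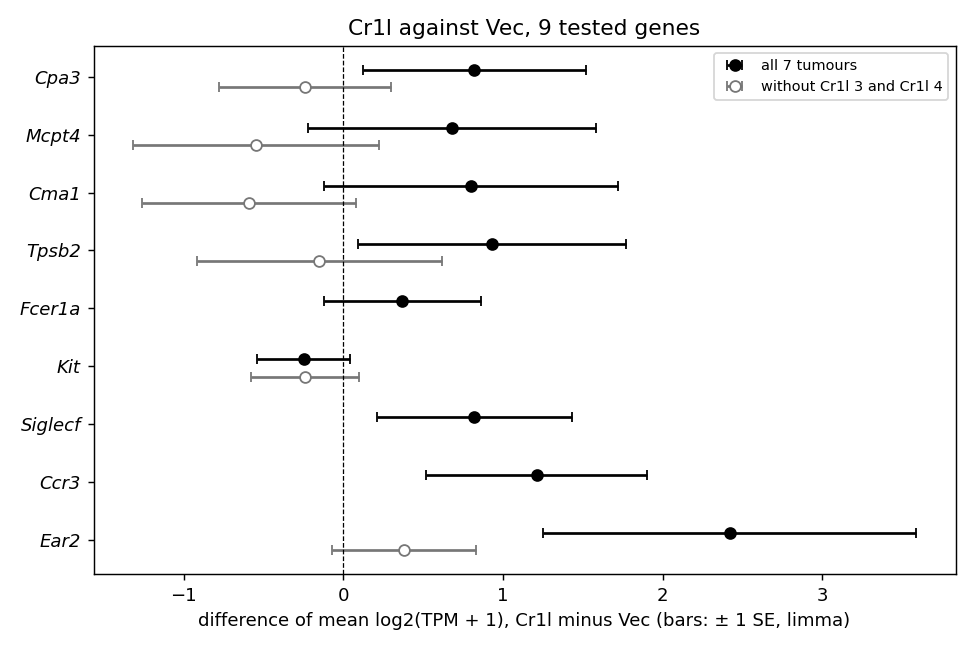
Difference of mean log2(TPM + 1), Cr1l minus Vec (horizontal axis), with ± 1 SE by limma for the 9 tested genes: filled points for all 7 tumours, open points without Cr1l 3 and Cr1l 4, shown for the 6 genes that then still reached a mean of 1 TPM. The 4 proteases lie above 0 with all tumours (0.68 to 0.93) and below 0 without those 2 (-0.59 to -0.15). Those 2 were the highest tumours for the proteases and were left out after seeing the data, so the open points must lie lower.

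Of the 10 members, 9 were tested by limma and 0 passed at an adjusted p under 0.05, beside 2 of all 14954 genes (0.0134%). At an unadjusted limma p under 0.05, 0 of the 9 stood among the 2327 genes (15.6% of those tested). Without Cr1l 1 there were 2 of 9 members (Ear2 and Ccr3, higher in Cr1l tumours), beside 2755 of 15044 genes. Without Cr1l 2 there was 1 of 9 (Ear2, higher), beside 2217 of 14987 genes. Without Vec 6 there was 1 of 9 (Kit, lower), beside 1518 of 14894 genes. Of the 9, Siglecf, Ccr3 and Fcer1a were tested only because Cr1l 3 and Cr1l 4 lifted their means. With no filter 0 of all 10 passed by limma. The groups overlapped for all 10 members, while they did not overlap for 16.0% of the tested genes. The differences were positive for 9 of the 10, beside 16108 of the 28233 genes of the table. The median difference was 0.68 over the 7 mast cell genes and 1.21 over the 3 eosinophil genes, beside 0.03 over all genes of the table. The smallest two-sided p of the exact permutation test over the 35 assignments of 4 and 3 tumours is 0.0286, and the members had 0.200 to 0.571.

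The table that the authors made with DESeq2, the authors' deposited table, called 2 of the 10 members higher in Cr1l tumours, beside 4.74% of the 18297 genes with an adjusted p. In the authors' deposited table the log2 fold change was 3.85 for Ear2 (SE 1.02, adjusted p = 0.00683) and 7.14 for Ccr3 (SE 2.25, adjusted p = 0.0298). Siglecf had 2.60 with an adjusted p of 0.199 in the authors' deposited table, the 4 proteases had 0.67 to 1.33 with adjusted p of 0.399 to 0.719, and Kit had -0.37 (0.520). Both called genes were highest by far in Cr1l 3 and Cr1l 4: the TPM of Ccr3 was 0.00 and 0.20 in Cr1l 1 and Cr1l 2 and 0.00 to 0.03 in the Vec tumours.

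Proteases of connective tissue mast cells were present and Mcpt2, a protease of mucosal mast cells, was near 0. Mcpt2 stood at 0.00 in all Cr1l tumours and at 0.00 to 0.47 TPM in Vec tumours, and the tryptase gene Tpsab1 at 0.04 to 0.69 TPM. C57BL/6 mice are known to lack a working Tpsab1 product. Mrgprb2, the receptor through which connective tissue mast cells respond to cationic peptides, was listed at 0.74, 0.52 and 0.33 TPM in Cr1l 3, Cr1l 4 and Cr1l 2, at 0.24 TPM in Vec 6 and at 0 in the other 3. Its neighbour in the family, Mrgprb1, stood at 0.14, 1.03, 1.64 and 1.63 TPM in Cr1l 1 to Cr1l 4 and 0.04, 0.16 and 0.00 TPM in Vec 5 to Vec 7, and the authors' deposited table called it higher (log2 fold change 3.82, adjusted p = 0.0116). Hdc, which makes histamine, stood at 0.62, 1.81, 12.16 and 5.20 TPM against 4.13, 5.99 and 1.52 TPM, with overlapping groups and a limma adjusted p of 0.988.

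The wider mast cell list held 20 genes, of which 19 were in the table, 7 were tested and 0 passed by limma. Over the 19 genes the median log2 difference was 0.21, with 14 positive and 5 negative, beside 16108 positive of all 28233 genes. Il1rl1, the receptor for interleukin 33, stood at 3.13, 3.94, 12.16 and 14.25 TPM against 5.21, 0.48 and 0.59 TPM (log2 difference 1.71, limma adjusted p = 0.293). Ltc4s, which makes leukotriene C4 in mast cells, eosinophils and macrophages, stood at 3.23, 7.75, 37.67 and 39.05 TPM against 2.85, 4.65 and 2.21 TPM (1.91, limma adjusted p = 0.311), and the authors' deposited table called it higher (2.70, adjusted p = 0.0260). The transcription factor gene Gata2 stood at 2.98 to 8.42 TPM, highest in Cr1l 3 and next in Vec 5 (-0.07, limma adjusted p = 0.925), while Gata1, used by both cell types and by red cell precursors, stood at 1.96 and 0.71 TPM in Cr1l 3 and Cr1l 4 and at 0.15 TPM or less elsewhere.

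Of the 11 further eosinophil genes, 3 (Rnase2a, Alox15 and Cebpe) had Cr1l 3 and Cr1l 4 as their highest tumours, while Rnase2b, for example, was highest in Vec 6 at 0.77 TPM. Rnase2a, a ribonuclease gene of this list, stood at 0.50, 2.06, 65.20 and 14.83 TPM in Cr1l 1 to Cr1l 4 against 0.20, 0.15 and 0.16 TPM in Vec 5 to Vec 7. Its groups did not overlap, yet its limma adjusted p was 0.311, with a log2 difference of 2.83 (SE 1.18), while the authors' deposited table gave 6.90 with an adjusted p of 2.77e-04. Alox15, the lipoxygenase of eosinophils and some macrophages, stood at 0.44, 0.83, 29.22 and 5.71 TPM against 0.45, 0.49 and 0.19 TPM (limma adjusted p = 0.393), and it was called higher in the authors' deposited table (4.57, adjusted p = 0.00226). Cebpe, a factor of granulocyte maturation, stood at 7.25 and 3.73 TPM in Cr1l 3 and Cr1l 4 and at 0.08 to 0.52 TPM in the other 5. Il5ra, the alpha chain of the interleukin 5 receptor, reached 1.42 TPM in Cr1l 3 and 0.13 TPM or less elsewhere, and Prg2, the major basic protein, reached 2.30 TPM in Cr1l 3 and 0.36 TPM or less elsewhere. Of the 12 genes of this list 11 were in the table, with a median log2 difference of 0.18. The difference was positive for 10 of them, beside 16108 of all 28233 genes. The 3 that were tested, Rnase2a, Alox15 and Cebpe, reached a mean of 1 TPM only through Cr1l 3 and Cr1l 4, and 0 of them passed by limma. Ccr3, Il5ra and Prg2 stood at 0.36 TPM or less in the 3 Vec tumours and in Cr1l 1 and Cr1l 2, and in Cr1l 4 Il5ra was at 0.12 and Prg2 at 0.00 TPM. Cr1l 3 was the only tumour with all 3 of these markers above 1 TPM. Other genes of the list were near 0 there, with Prg3 at 0.08 TPM and Ear1 and Ear10 at 0.00 TPM. Epx, a further gene of the list, was missing from the table. The part of eosinophils in these levels was not tested.

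**Figure D4:**
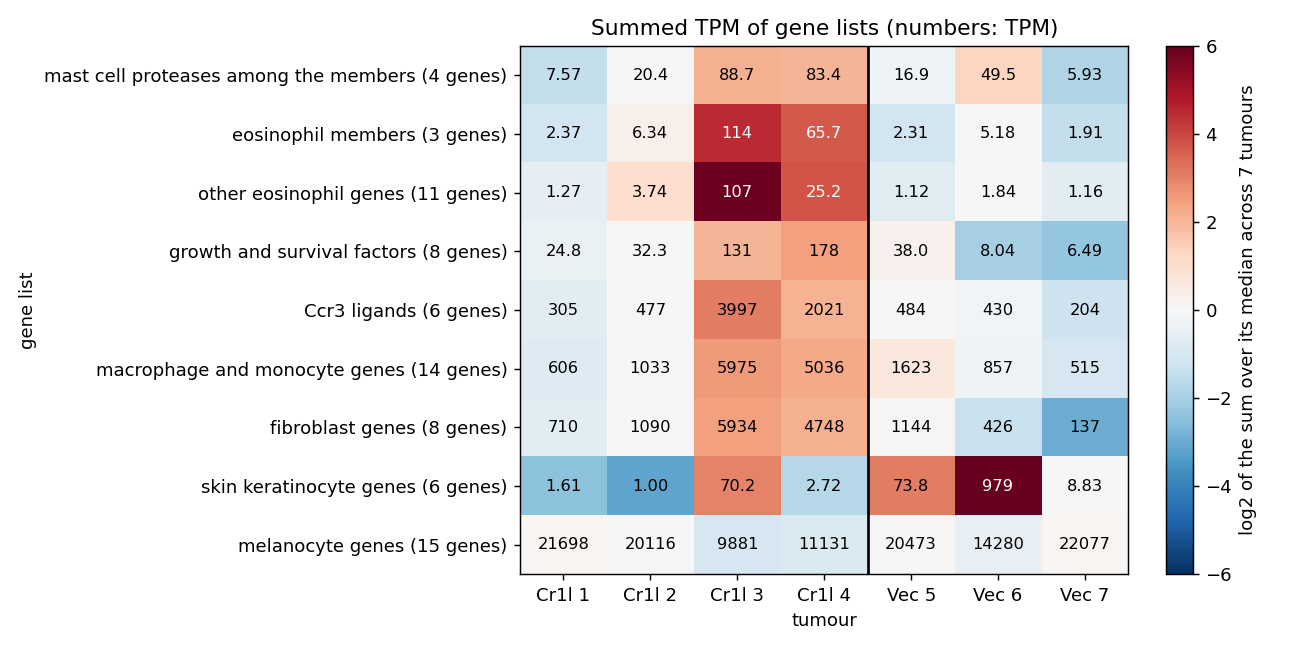
Summed TPM of 9 gene lists (rows, with the number of genes summed) in the 7 tumours (columns, 4 Cr1l left of the line, 3 Vec right of it); numbers are TPM and the colour is the log2 of each sum over its row median. The eosinophil genes are highest in Cr1l 3 and Cr1l 4 (114 and 65.7 TPM, of which Ear2 makes up 102.77 and 61.26), as are fibroblast and macrophage genes, and the keratinocyte row is highest in Vec 6 at 979 TPM.

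Markers of the other cells that carry member genes followed the same tumours in part. The 7 basophil genes summed to 18.9 to 54.3 TPM, of which Il3ra, the interleukin 3 receptor chain that other leukocytes also carry, made up 17.60 to 45.84 TPM. The basophil proteases were low: Mcpt8 stood at 1.70 TPM in Cr1l 3 and at 0.55 TPM or less elsewhere, and Prss34 at 0.36 TPM or less in every tumour. Of the 7 genes, 5 had Cr1l 3 and Cr1l 4 as their highest tumours. The 14 macrophage and monocyte genes summed to 5975 and 5036 TPM in Cr1l 3 and Cr1l 4, to 606 and 1033 TPM in Cr1l 1 and Cr1l 2 and to 515 to 1623 TPM in the Vec tumours. Of the 5 alveolar macrophage genes, 2 (Marco and Car4) had Cr1l 3 and Cr1l 4 as their highest tumours, as did 3 of the 6 nonclassical monocyte genes. Marco, a scavenger receptor, stood at 22.06 and 15.29 TPM there and at 1.59 to 3.31 TPM elsewhere, whereas Fabp4, a fatty acid binding protein gene, stood at 297.17 TPM in Cr1l 3 but higher in Vec 6 (118.87 TPM) and Vec 5 (110.05 TPM) than in Cr1l 4 (93.18 TPM). Set against Csf1r, a macrophage gene, Ear2 was 0.547 and 0.420 times its level in Cr1l 3 and Cr1l 4 and 0.0532 to 0.266 times in the other 5. For Siglecf the ratio to Csf1r was 0.0264 and 0.0126 in Cr1l 3 and Cr1l 4 and reached 0.0316 and 0.0252 in Vec 6 and Vec 7. The part of macrophages in the levels of Ear2, Siglecf and Rnase2a was not tested.

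Ligands that feed or attract these cells were measured as well. Kitl, the Kit ligand on fibroblasts and endothelium, stood at 5.24, 3.49, 16.78 and 12.69 TPM in Cr1l 1 to Cr1l 4 and 6.29, 2.49 and 3.41 TPM in Vec 5 to Vec 7 (log2 difference 0.91, limma adjusted p = 0.406). Il33, an alarmin that activates mast cells, stood at 17.90, 27.04, 105.79 and 156.11 TPM against 30.55, 3.26 and 2.46 TPM (2.82, limma adjusted p = 0.264), with Vec 5 above Cr1l 1 and Cr1l 2. Il5, the eosinophil growth factor, stood at 0.62 TPM or less in every tumour. Of the 10 growth factors 8 were in the table, all 8 with a positive difference (median 0.53), beside 16108 of all 28233 genes. By limma 0 of 3 tested passed.

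Among the 6 Ccr3 ligands, 5 had a positive difference (median 1.62), beside 16108 of all 28233 genes, and 0 of the 5 tested passed by limma. Ccl11, eotaxin-1, stood at 7.96, 14.36, 57.25 and 60.63 TPM against 23.03, 4.80 and 3.20 TPM (1.66, limma adjusted p = 0.372), so Vec 5 lay above Cr1l 1 and Cr1l 2. Ccl24, eotaxin-2, stood at 2.59, 2.75, 29.97 and 8.34 TPM against 1.29, 0.36 and 0.48 TPM, with no overlap of the groups (2.25, SE 0.73, limma adjusted p = 0.251), and the authors' deposited table called it higher (4.01, adjusted p = 0.00203). Ccl7, which also binds monocyte receptors, did not overlap either, at 53.93, 88.73, 174.72 and 135.13 TPM against 30.51, 8.96 and 12.32 TPM (2.69, limma adjusted p = 0.119). For Ccl7 the authors' deposited table gave 2.71 with an adjusted p of 3.36e-05. The groups did not overlap for 16.0% of all tested genes. Ccl28, under the filter, did not overlap in the other direction, at 0.10 TPM or less in Cr1l and 0.14 to 0.21 TPM in Vec tumours. In Cr1l 1 and Cr1l 2, Ccl24 and Ccl7 were above all Vec tumours, and Ccr3 stood at 0.00 and 0.20 TPM. A link between the ligands and Ccr3 was not tested.

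Signalling genes below the IgE receptor are shared with B cells, T cells and macrophages. Of 13 genes in this list, 12 were tested and 0 passed by limma. The median difference was 0.63, and 11 were positive, beside 16108 of all 28233 genes. Btk, a kinase of mast cells, B cells and macrophages, stood at 1.97, 2.68, 15.49 and 9.90 TPM against 2.14, 0.91 and 0.72 TPM (log2 difference 1.61, limma adjusted p = 0.292). Lcp2, an adaptor of the same pathway, stood at 6.59, 5.87, 43.49 and 24.81 TPM against 7.89, 3.58 and 1.73 TPM (1.70, limma adjusted p = 0.317). Both genes were highest in Cr1l 3 and Cr1l 4, and the authors' deposited table called both higher, with an adjusted p of 0.0127 for Btk and 0.0423 for Lcp2.

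Genes whose pattern over the 7 tumours was most like that of 4 members were listed by Pearson's r of log2(TPM + 1), as a description. Cpa3 was most like S100a6, Arhgap24, Ltb4r1, Tusc1 and Cd24a (r of 0.984 to 0.994), and r was 0.943 to 0.979 over the 5 tumours without Cr1l 3 and Cr1l 4. Ccr3 was most like Ptpn5, F5, Tyk2, Cebpe and Gimap7 (0.992 to 0.998), but without those 2 tumours r was 0.330 to 0.817, so the likeness rests on them. Siglecf was most like Rab44, Ccdc12, Neurl1b, Inpp5j and Traf3ip3 (0.984 to 0.994, and 0.683 to 0.903 without them). Kit was most like Taldo1, Cfl1, Nosip, Atp1b3 and Mrps18b (0.955 to 0.988, and 0.958 to 0.990 without them). None of the 5 genes nearest to Kit was in a mast cell or melanocyte list, and Cebpe, next to Ccr3, was the 1 listed eosinophil gene among the 20.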

How the data were processed

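RNA of 7 tumours was measured, 4 Cr1l and 3 Vec, grouped by the sample labels; the labels number the tumours 1 to 7, which pairs nothing, and do not state that each came from a separate mouse, so p-values measure only the spread between these samples, which may be technical. Poly(A) RNA was made into libraries that do not mark strand, per the labels' protocols, so a gene and an antisense partner cannot be told apart. The deposited values are log2(TPM + 1) per gene, made by the authors with RSEM on mm39 per the submitters' processing notes; versions, aligner and annotation were not given in the sources used. The logarithm was undone and TPM rounded to 2 decimals. The authors' deposited DESeq2 table gives a mean normalized count (a signal), a log2 fold change with its SE, a test score, and a p-value with its adjusted p-value; the numerator is not named and was read as Cr1l from the positive value of Cr1l. Its identifiers were matched to symbols for 27182 of 28369.

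Genes that averaged 1 TPM or more were tested with limma 3.58.1 in R 4.3.3 (variance trend, two-sided, Benjamini-Hochberg over 14954 genes, threshold 0.05), which was tested on simulated data. A log2 difference on the log2(TPM + 1) scale understates changes of low genes. Exact permutation tests compared mean log2 values and were not adjusted over the members. The number of tumours limits the precision. Alternatives changed the filter, pseudocount, scaling, variance trend and tumours. Members and lists were chosen with earlier results of these data known. Named are the members, up to 4 genes with the smallest p of each further list, a set of defining genes and 5 similar genes each for Cpa3, Kit, Ccr3 and Siglecf; more were named than are printed. Mcpt2, Mrgprb1, Mrgprb2, Ear1, Ear6, Ear10, Rnase2b, Il3ra, Fabp4, Car4 and Csf1r were chosen after their values were seen. So were Hpgds, Prg3, Ccl28 and the ratios between genes. The antigen receptor table was not used.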

Additional observations from a re-analysis of the deposited data

Results flagged for a closer look

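Fcer1a in Cr1l 1 lay far from the other 3 Cr1l tumours. It stood at 0.13 TPM there and at 1.85, 2.17 and 2.10 TPM in Cr1l 2, Cr1l 3 and Cr1l 4, and on the log2(TPM + 1) scale the gap to the nearest tumour was 0.897 of the range of the group, above Dixon's 95% critical value for 4 samples. The 10 members were looked at in this way, and chance alone marks about 1 group in 20. Vec 7, at 0.12 TPM, had a level like that of Cr1l 1. The mean normalized count of Fcer1a in the authors' deposited table was only 12.4. Without Cr1l 1 the log2 difference of Fcer1a was 0.72 in place of 0.37, and without Vec 7 it was 0.01 (limma adjusted p = 0.996). Neither passed.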

How the results depend on the processing

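No member passed by limma in any setting tried, and 116 of 121 single differences kept their sign. That count overstates stability, because a change of filter or variance trend leaves the difference itself unchanged. It also lacks Siglecf and Ccr3 without Cr1l 3, and Siglecf, Ccr3 and Fcer1a without Cr1l 3 and Cr1l 4, where they fell under the filter. Without Cr1l 3 and Cr1l 4, a setting chosen after seeing the data, the differences of Cpa3 (-0.24), Mcpt4 (-0.55), Cma1 (-0.59) and Tpsb2 (-0.15) reversed. The median of the mast cell members reversed too (-0.24, from 0.68), and the median of the eosinophil members was 0.11 in place of 1.21. Leaving out 1 tumour moved Mcpt4 from -0.0011 (without Vec 7, exact p = 1.00) to 1.43 (without Vec 6, exact p = 0.267). With a pseudocount of 0.1 the eosinophil median was 2.68. Leaving out 1 tumour gave medians of 0.25 to 1.22 and 0.68 to 1.63. Over all genes limma called 2 in the reported setting, 0 with no filter (3099 at an unadjusted p under 0.05), 6 with a pseudocount of 0.1, 10 with median-of-ratios scaling, 13 with no variance trend, 9 without Cr1l 3 and Cr1l 4, 5 without Cr1l 3, 6 without Cr1l 4, and from 0 (without Cr1l 2, Vec 5 or Vec 6) to 8 (without Vec 7) when 1 tumour was left out. No paired analysis was possible because the groups share no replicate number.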
